A study of Mus musculus with 6 samples.

Results

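The genes described here are 9 genes of iron handling and cystine uptake: Fth1, Ftl1, Tfrc, Trf, Slc11a2, Slc40a1, Cp, Hmox1 and Slc7a11. They were chosen by symbol for their function, with earlier results of these data known, and are 9 of the 32285 genes counted. They were measured by single-nucleus RNA sequencing of brains, without olfactory bulbs and cerebellum, of C57BL/6 S-56 mice in a model of post-hemorrhagic hydrocephalus. Pups received 5 µl of lysophosphatidic acid (LPA), a lipid found in blood, or of its vehicle, bovine serum albumin in buffer, into the right lateral ventricle on postnatal day 7. Brains were collected on postnatal day 15. No blood was injected, so LPA stands in for the hemorrhage. Each of the 3 LPA and 3 vehicle libraries came from the nuclei of 1 brain, sorted as negative for NeuN, a protein of neuronal nuclei. Neuronal nuclei still made up 26.4% of the nuclei kept. RNA of sorted nuclei was measured, introns included, and not the proteins. Some RNA from outside the nucleus, such as mitochondrial RNA, was counted with it.

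Iron reaches cells bound to transferrin (Trf), which is taken up with its receptor (Tfrc), and is then carried out of the endosome by Slc11a2. Iron that is not used is stored in ferritin, a shell of heavy (Fth1) and light (Ftl1) chains, or leaves the cell through ferroportin (Slc40a1), the known iron exporter, with the help of ferroxidases such as ceruloplasmin (Cp). Heme oxygenase (Hmox1) frees iron from heme. Slc7a11 is the transport subunit of the exchanger that takes up cystine for glutathione, which protects membrane lipids from peroxides formed with iron. In brain, oligodendrocytes are known for their high iron content, endothelial cells for the transferrin receptor, and macrophages and microglia for recycling of iron from heme. When iron is scarce, iron regulatory proteins bind a hairpin in messenger RNAs, the iron-responsive element, which blocks translation from a 5′ UTR and protects the messenger from decay in a 3′ UTR.

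These hairpins are shown because they mark members that can be controlled after transcription, which UMIs from nuclei do not report. The pattern searched on the sense strand of the transcripts was C, 5 bases, the loop CAGTGN, and 5 bases that pair with the first 5, with G-T pairs allowed. It matched 4 of the 9 members. Across all 21901 genes with a protein-coding transcript, 294 (1.34%) had a match somewhere in a transcript. The loop is in capitals, and the sequences are those of GENCODE M21 transcripts with positions on GRCm38, the assembly of mm10.
Fth1, 5′ UTR, chr19:9982738-9982754, plus strand: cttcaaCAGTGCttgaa
Ftl1, 5′ UTR, chr7:45459785-45459801, minus strand: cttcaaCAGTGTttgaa
Slc40a1, 5′ UTR, chr1:45925471-45925487, minus strand: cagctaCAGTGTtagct
Tfrc, 3′ UTR, chr16:32631225-32631241, plus strand: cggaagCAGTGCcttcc
Tfrc, 3′ UTR, chr16:32631604-32631620, plus strand: cgggagCAGTGTcttcc
Tfrc, 3′ UTR, chr16:32631669-32631685, plus strand: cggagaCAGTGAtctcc
Tfrc, 3′ UTR, chr16:32631716-32631732, plus strand: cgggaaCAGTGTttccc
The ferritin and ferroportin genes each had 1 match in the 5′ UTR, and Tfrc had 4 in the 3′ UTR. No match in the other 5 members says only that this pattern is not in their transcripts as annotated. Slc11a2 is known for an iron-responsive element in the 3′ UTR of some of its isoforms. The antioxidant response element TGACNNNGC, searched on both strands from 250 bases before to 50 after the start site in the RefSeq promoters of GRCm38.p6, was in 0 of the 8 promoters found for 5 members (Fth1, Ftl1, Tfrc, Cp and Slc7a11) and in 12.4% of all 32851 promoters.

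The libraries held 48852970 to 65688644 UMIs (unique molecular identifiers, each counting 1 captured molecule), and 57443 of 63383 barcodes were kept. Clusters were named from fixed marker lists as 6 classes and their subtypes, so that a name such as astrocytes means nuclei that are astrocyte-like by these markers. Of the markers that named a class, 14 of 15 were highest in their own class for astrocytes and 15 of 16 for oligodendrocytes, and all 18, 15, 15 and 22 were for ependymal, immune, neuronal and vascular nuclei. Clusters with 13.15% of nuclei stayed unnamed and enter only the sums over all nuclei. In all, 708 barcode sequences occurred in more than 1 library (3.18% to 4.65% of the barcodes of each). Levels are CPM, the UMIs of a gene per 1000000 UMIs of the same nuclei, so they can be compared between samples and cell types for 1 gene but not between genes. UMIs were summed per library, and LPA was tested against vehicle with edgeR's quasi-likelihood test over all genes. A gene was called where the adjusted p was under 0.05 and the log2 fold change at least 0.25 in size. Nothing in the labels names a batch, and the p-values measure the spread between these libraries, 1 mouse each.

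Of the members, 15 of the 49 tests over the 6 classes gave a call, beside 6.18% of all genes tested in these classes. The 15 include Hmox1 in immune nuclei, which passed the filter on low counts through the LPA libraries, where it was high. Because the members were chosen with earlier results of these data known, the shares are a description and no test against other genes. In single classes, 4 of 8 members were called in astrocytes (2 raised, 2 lowered, against 8.02% of all genes), 2 of 8 lowered in ependymal nuclei (3.37%), 3 of 9 in immune nuclei (1 raised, 2 lowered, 6.29%), 0 of 8 in neurons (0.209%), 2 of 8 lowered in oligodendrocytes (11.9%) and 4 of 8 in vascular nuclei (2 raised, 2 lowered, 7.95%). In neurons 4 of the 8 had an unadjusted p under 0.05, as had 8.18% of all genes, and DESeq2 called 0. Of the 10 subtypes with enough nuclei, 6 had a call for 1 member each, all lowered, beside 1.07% of the genes tested in subtypes. The share of all genes called was 1.78% in newly formed and 0.663% in myelinating oligodendrocytes, 1.25% in homeostatic microglia, 0.463% in pericytes, 1.13% in meningeal cells and 4.05% in multiciliated ependymal cells. No member was called in the other 4, of 7 tested in oligodendrocyte precursors (0.191% of all genes called), 8 in endothelial cells (0.147%), 3 in macrophages (0%) and 5 in choroid plexus epithelium (0.114%). DESeq2 called 0 in these 4 as well. An unadjusted p under 0.05 was found there for 3, 1, 0 and 0 members, beside 7.52%, 7.31%, 4.603% and 5.44% of all genes. The effect in a class differed from its mean in the other 5 classes for 11 of 54 member and class combinations (edgeR adjusted p under 0.05). These were 2 in astrocytes, where 1.73% of all genes differed in this way, 2 in immune nuclei (3.04%, with Hmox1 as 1 of them, which could not be tested alone in the other classes), 2 in oligodendrocytes (4.72%), 5 in vascular nuclei (4.2%), 0 in ependymal nuclei (1.2%) and 0 in neurons (0.456%). Over all nuclei 1 member was raised and 4 were lowered, beside 5.62% of all genes. In such sums, fewer cells of a type and less RNA per cell cannot be told apart. Hmox1 passed the filter on low counts only over all nuclei and in immune nuclei, and the other 8 members passed it in every class.

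**Figure D1:**
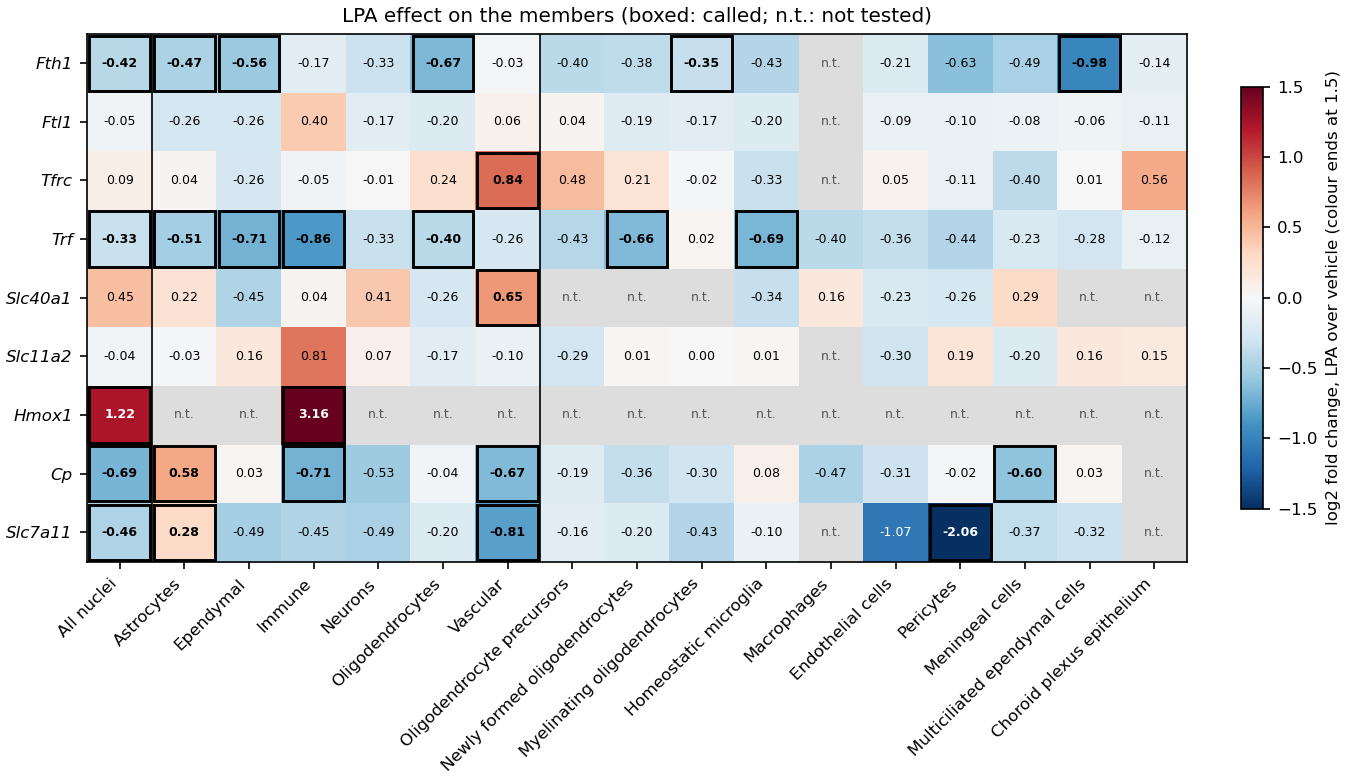
The log2 fold change of LPA over vehicle of each member (rows) is given by colour and number for all nuclei, the 6 classes and the 10 subtypes tested (columns). Boxes mark calls, grey cells (n.t.) were not tested, and Trf and Fth1 had the most boxes, all of them for lower values.

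Ferritin heavy chain was lower after LPA in several classes, and its partner chain was not called in any. In oligodendrocytes, Fth1 stood at 112, 130 and 139 CPM in LPA libraries 1 to 3 and at 201, 196 and 204 CPM in vehicle libraries 1 to 3. The groups did not overlap, and the log2 fold change was -0.67 ± 0.07 (SE, edgeR adjusted p = 3.24e-05). In astrocytes, the levels were 83.4, 102 and 97.0 CPM after LPA and 139, 131 and 127 CPM after vehicle, again without overlap (log2 fold change -0.47 ± 0.08, SE, edgeR adjusted p = 6.14e-04). An astrocyte cluster led by Myoc, with Gfap, held 435, 534 and 436 of the 1724, 2100 and 1605 astrocytes of LPA libraries. In vehicle libraries it held 136, 267 and 246 of 1115, 1986 and 1866. The part of this cluster in the astrocyte values of Fth1, Trf, Cp and Slc7a11 was not tested. In ependymal nuclei the 3 LPA libraries lay between 64.9 and 86.2 CPM, all below the vehicle range of 112 to 121 CPM (log2 fold change -0.56 ± 0.13, SE, edgeR adjusted p = 0.0223). This call was lost without LPA replicate 1 (-0.45, edgeR adjusted p = 0.1102), without vehicle replicate 2 (-0.55, 0.106), without vehicle replicate 3 (-0.61, 0.0564), in DESeq2 (-0.57, 0.0586) and with Scrublet doublet calls left out (-0.54, 0.0640). Vascular nuclei (114 ± 12.6 CPM after LPA and 117 ± 6.07 after vehicle, SD, n = 3) and immune nuclei (127 ± 22.2 and 138 ± 18.4 CPM) had overlapping groups and no call. Within the vascular class, though, Fth1 had negative values in each subtype. These were -0.63 ± 0.20 in pericytes (edgeR adjusted p = 0.257) and -0.49 ± 0.12 in meningeal cells (0.0512), both without overlap, and -0.21 ± 0.13 in endothelial cells (0.762), which held the highest Fth1 level of the 3 and a larger share of the class after LPA (SE). The meningeal value was called with no filter on low counts (-0.51, edgeR adjusted p = 0.00881), at Leiden resolution 2 (-0.49, 0.0458) and without vehicle replicate 1 (-0.55, 0.0369). In neurons the 60.5 to 68.6 CPM after LPA lay below the 78.8 to 90.2 CPM after vehicle, but the log2 fold change of -0.33 ± 0.07 (SE) was not called (edgeR adjusted p = 0.166). The vascular value turned over when the mitochondrial filter was left out, to a call at 0.40 (edgeR adjusted p = 0.0360). The effect in oligodendrocytes lay 0.39 ± 0.08 (SE) below the mean effect of the other 5 classes on the log2 scale (edgeR adjusted p of the difference = 0.00122).

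Within the subtypes, Fth1 had a negative log2 fold change in all 9 tested and was called in 2. In myelinating oligodendrocytes it was 195, 247 and 250 CPM in LPA libraries and 314, 287 and 296 CPM in vehicle libraries. The groups did not overlap, but the log2 fold change of -0.35 ± 0.08 (SE) was smaller in size than in the class and lay at the threshold (edgeR adjusted p = 0.0492). It was lost without any of LPA replicate 1 (-0.24, edgeR adjusted p = 0.0673), LPA replicate 2 (-0.40, 0.142) and vehicle replicates 1, 2 and 3 (-0.32, -0.38 and -0.35, at 0.0618, 0.137 and 0.133), and also with the replicate block (-0.36, 0.0744) and at Leiden resolution 2 (-0.36, 0.0557). RLE size factors (-0.35, edgeR adjusted p = 0.0510) and no mitochondrial filter (-0.35, 0.0512) lost the myelinating call as well. Myelinating nuclei, where Fth1 was highest of the 3 subtypes, were 33.3% to 38.9% of the oligodendrocyte class after LPA and 49.3% to 55.5% after vehicle. The part of this share in the class value was not tested. Oligodendrocyte precursors held 51.1 ± 5.88 CPM after LPA and 69.3 ± 2.17 CPM after vehicle (SD, n = 3), without overlap, and newly formed oligodendrocytes 43.7 ± 7.10 and 56.1 ± 6.74 CPM, with overlap. In multiciliated ependymal cells, whose cilia move the cerebrospinal fluid, Fth1 was 60.5, 97.2 and 90.2 CPM after LPA and 180, 122 and 161 CPM after vehicle. This was the largest effect on Fth1 among the subtypes (log2 fold change -0.98 ± 0.19, SE, edgeR adjusted p = 0.00132), and it fell short without vehicle replicate 1 (-0.81, edgeR adjusted p = 0.0590). The groups sat partly in different clusters. Ependymal clusters 4 (led by Plb1) and 5 (led by Cdc20b, with Mcidas and Top2a) held 121 and 82 of the 591 multiciliated nuclei of LPA libraries but 3 and 6 of the 377 of vehicle libraries. Without these 2 clusters Fth1 was 65.4, 126.4 and 110 CPM after LPA and 179, 126.2 and 165 CPM after vehicle, so that the groups just overlapped. Mitochondrial UMIs, which come from outside the nucleus, were also lower after LPA. Their share was 0.0195% to 0.0436% in oligodendrocytes of LPA libraries and 0.0532% to 0.0822% in those of vehicle libraries, 0.0303% to 0.0663% against 0.0964% to 0.143% in astrocytes, 0.0552% to 0.0786% against 0.151% to 0.195% in ependymal nuclei, and 0.0908% to 0.103% against 0.276% to 0.396% in multiciliated cells. Of the classes without a call for Fth1, the ranges overlapped in vascular nuclei (0.0413% to 0.0696% and 0.0670% to 0.0990%) but not in immune nuclei (0.0309% to 0.0608% and 0.122% to 0.182%) or neurons (0.0196% to 0.0427% and 0.0761% to 0.1015%). Transcripts of ribosomal proteins were lower after LPA without overlap in astrocytes (2631 to 2867 against 3105 to 3476 CPM), ependymal nuclei (2291 to 2701 against 2842 to 3190 CPM), immune nuclei (3761 to 4122 against 4454 to 4832 CPM), myelinating oligodendrocytes (1897 to 2099 against 2174 to 2405 CPM) and multiciliated cells (2217 to 2711 against 2890 to 3602 CPM). They overlapped in the oligodendrocyte class (2367 to 2520 and 2419 to 2737 CPM). The part of either in the Fth1 values was not tested.

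In immune nuclei Ftl1 and Fth1 had values of opposite sign, neither called, and the genes were not tested against each other. There Ftl1 was 108, 113 and 133 CPM in LPA libraries and 100.6, 75.2 and 113 CPM in vehicle libraries, with overlap. No class gave a call for Ftl1 (log2 fold change in immune nuclei 0.40 ± 0.19, SE, edgeR adjusted p = 0.284). The difference of this effect from the mean of the other 5 classes was 0.63 ± 0.16 on the log2 scale (SE, edgeR adjusted p = 0.0148). It was lost without LPA replicate 3 (0.58, edgeR adjusted p = 0.107), vehicle replicate 1 (0.63, 0.0813) and vehicle replicate 2 (0.55, 0.289), and with RLE size factors (0.55, 0.0575). Within homeostatic microglia the log2 fold change of Ftl1 was -0.20 ± 0.27 (SE, edgeR adjusted p = 0.875). In macrophages, where it was not tested, Ftl1 was 59.0 ± 29.5 CPM after LPA and 125 ± 32.4 CPM after vehicle (SD, n = 3). Its levels in microglia found only in LPA libraries are given below, and their part in the class value was not tested. In astrocytes, ependymal nuclei, oligodendrocytes and neurons the log2 fold changes of Ftl1 were -0.26, -0.26, -0.20 and -0.17, none of them called. The related pseudogene Ftl1-ps1 had 26 UMIs in all nuclei and Fthl17a 28, so reads counted for near copies of ferritin genes were few, but reads shared with uncounted copies cannot be seen in UMI tables.

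**Figure D2:**
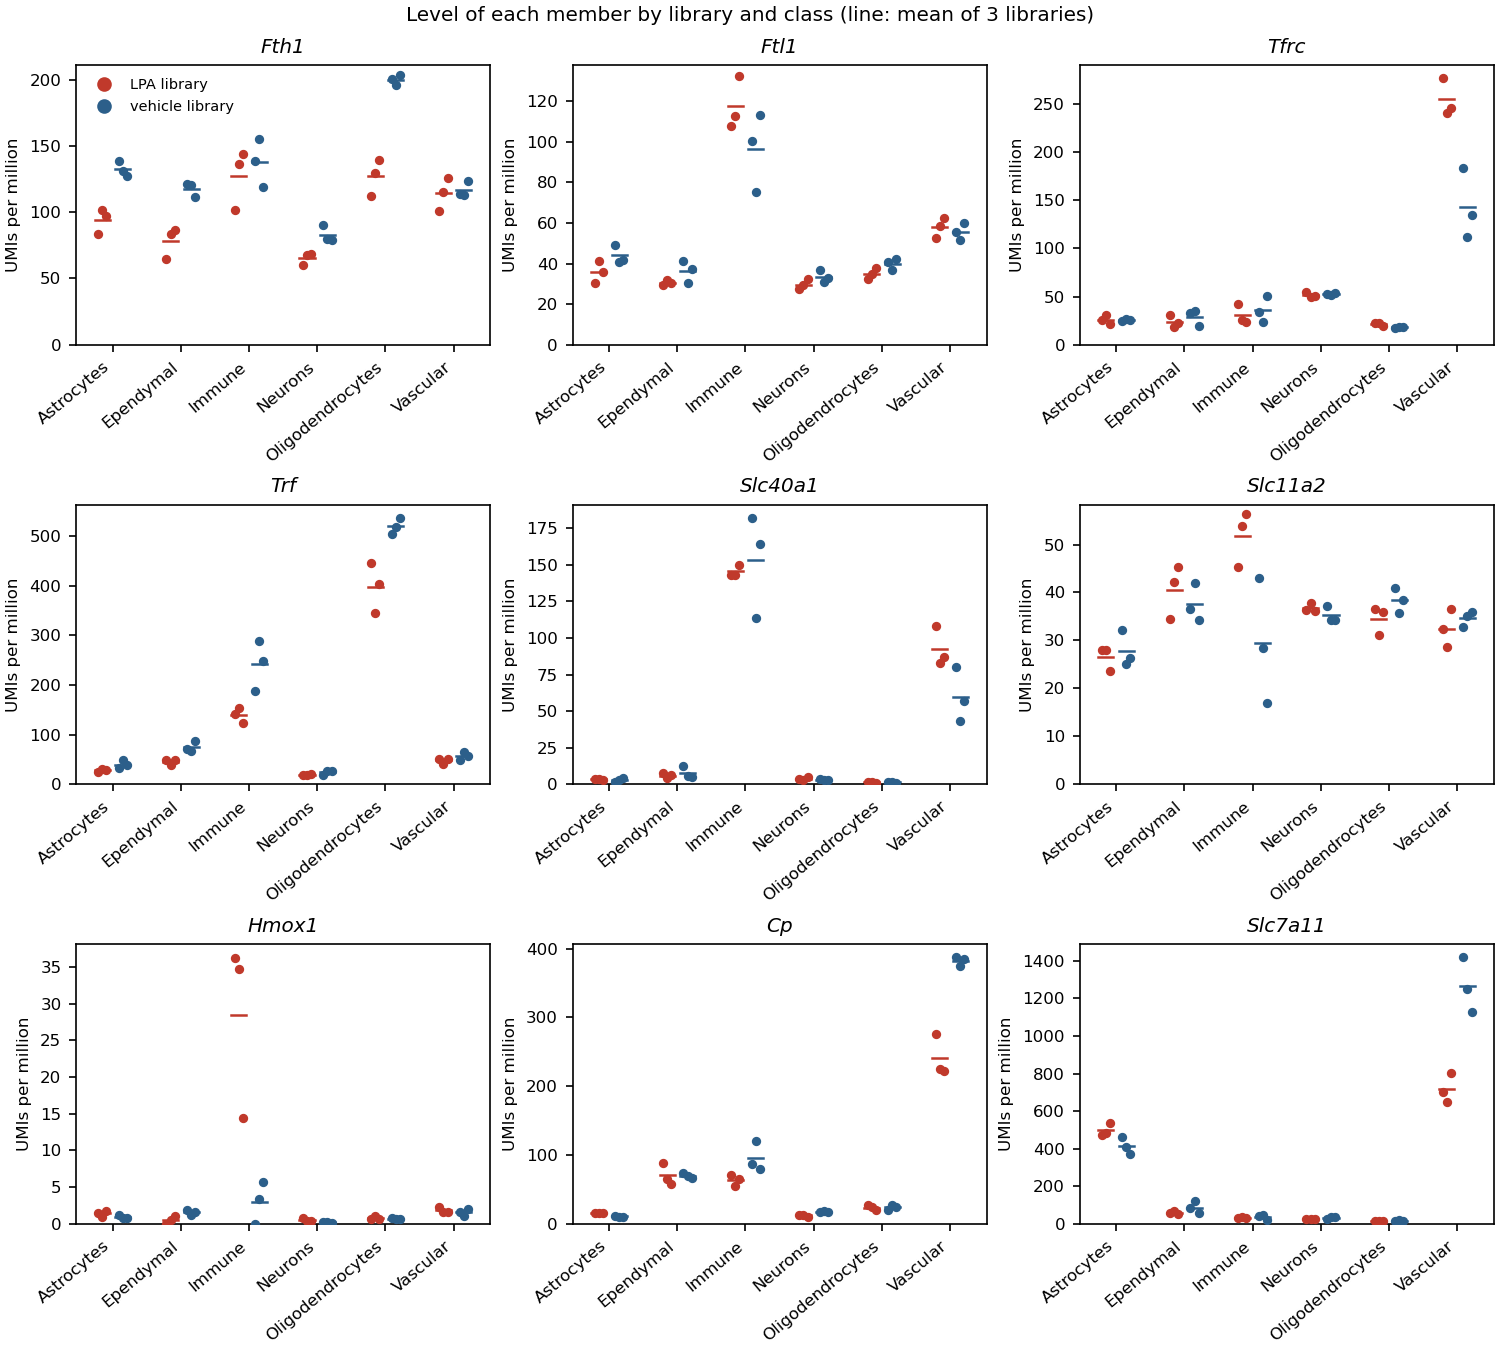
Each panel plots 1 member in CPM (vertical axis) against the 6 classes, with a point per library and a line at the mean of 3 libraries. Fth1 in oligodendrocytes, at 112 to 139 after LPA and 196 to 204 after vehicle, and Slc7a11 in vascular nuclei, at 650 to 805 and 1128 to 1418, show groups without overlap.

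The transferrin receptor was raised by LPA in the vascular class and in no other. Tfrc in vascular nuclei was 277, 241 and 246 CPM in LPA libraries and 183, 112 and 135 CPM in vehicle libraries. The groups did not overlap (log2 fold change 0.84 ± 0.13, SE, edgeR adjusted p = 9.22e-04), and the effect exceeded the mean of the other 5 classes by 0.83 ± 0.14 on the log2 scale (SE, edgeR adjusted p = 8.10e-05). Within endothelial cells, which line the vessels and held the highest level, the receptor was 1042, 961 and 844 CPM after LPA and 981, 869 and 888 CPM after vehicle. These values overlapped, and the log2 fold change was 0.05 ± 0.11 (SE, edgeR adjusted p = 0.963). Pericytes, which surround capillaries, gave -0.11 ± 0.22 and meningeal cells -0.40 ± 0.22 (SE), neither called. Endothelial nuclei made up 24.2% to 27.3% of the vascular class after LPA and 10.8% to 16.4% after vehicle, while meningeal nuclei made up 44.5% to 50.6% and 63.5% to 69.0%. The summed level of 12 endothelial markers within the class was 4247 to 5105 CPM after LPA and 2165 to 3319 CPM after vehicle. In the other classes Tfrc had log2 fold changes from -0.26 in ependymal nuclei to 0.24 in oligodendrocytes. In the latter, 20.0 to 22.5 CPM after LPA did not overlap with 17.4 to 18.6 CPM after vehicle, but the value was not called (edgeR adjusted p = 0.0901).

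Transferrin, which oligodendrocytes make in brain, was lower after LPA in 4 classes and over all nuclei. In oligodendrocytes, Trf was 447, 344 and 403 CPM in LPA libraries and 505, 517 and 537 CPM in vehicle libraries. The groups did not overlap (log2 fold change -0.40 ± 0.08, SE, edgeR adjusted p = 0.00393). In myelinating oligodendrocytes, its main site among the subtypes, the levels were 907, 763 and 827 CPM after LPA and 849, 818 and 825 CPM after vehicle. There the groups overlapped and the log2 fold change was 0.02 ± 0.06 (SE, edgeR adjusted p = 0.941). In newly formed oligodendrocytes, however, Trf was 56.2, 56.3 and 55.4 CPM after LPA and 81.5, 93.1 and 86.6 CPM after vehicle. This difference exceeded the spread in every alternative run (log2 fold change -0.66 ± 0.10, SE, edgeR adjusted p = 7.40e-04). Markers of myelinating oligodendrocytes were also lower in these newly formed cells, at 4560 to 5327 CPM after LPA and 5702 to 5983 CPM after vehicle. The ratio of Trf to these markers was 1.04 to 1.23 UMIs per 100 marker UMIs after LPA and 1.36 to 1.56 after vehicle, without overlap. Over all nuclei Trf fell from 185 ± 10.6 to 146 ± 9.01 CPM (SD, n = 3, log2 fold change -0.33 ± 0.06, SE, edgeR adjusted p = 0.0217). That call was lost without LPA replicate 2 (-0.28, edgeR adjusted p = 0.0717), LPA replicate 3 (-0.33, 0.0584) and vehicle replicate 2 (-0.27, 0.0625). Outside the oligodendrocyte class the levels were 61.9 to 74.5 CPM after LPA and 74.2 to 91.9 CPM after vehicle and overlapped.

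**Figure D3:**
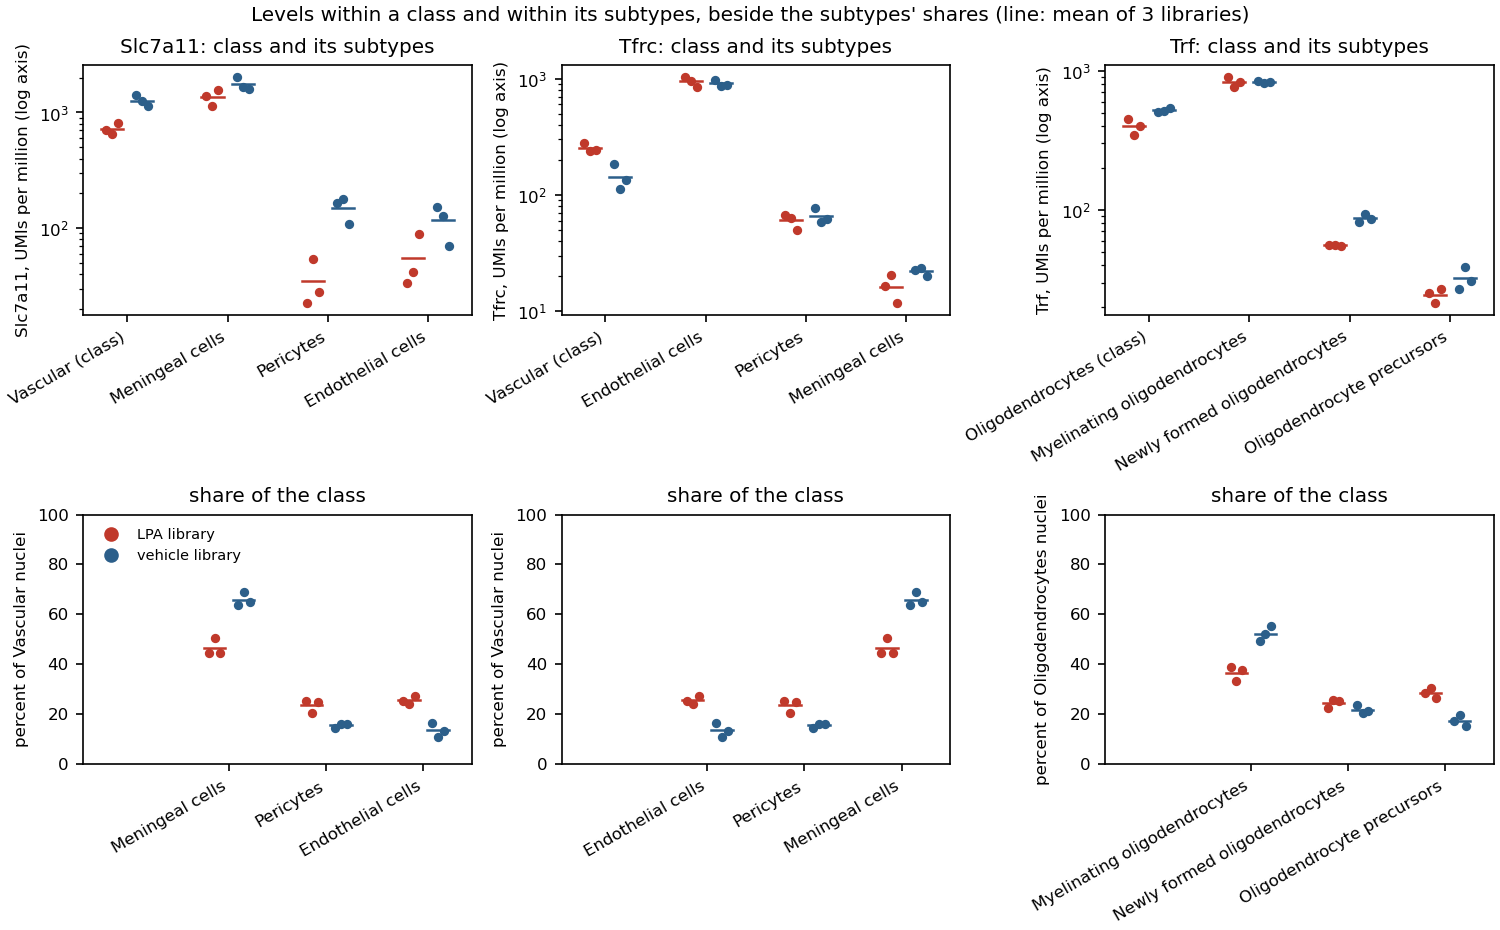
The upper panels plot Slc7a11, Tfrc and Trf in CPM (log axis) in a class and in 3 of its subtypes, and the lower panels the percent of the class in each subtype, with a point per library and a line at the mean. Tfrc differed between groups in the vascular class and overlapped in endothelial cells, whose share of the class was 24.2% to 27.3% after LPA and 10.8% to 16.4% after vehicle.

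Trf was also called in astrocytes, ependymal nuclei and immune nuclei. Of these, the ependymal class includes the choroid plexus epithelium, a known source of transferrin in brain. It was 25.5, 30.1 and 28.6 CPM in astrocytes of LPA libraries and 32.0, 47.9 and 39.1 CPM in those of vehicle libraries, without overlap (log2 fold change -0.51 ± 0.13, SE, edgeR adjusted p = 0.0176). The call was lost without LPA replicate 1 (-0.44, edgeR adjusted p = 0.0776) and without vehicle replicate 2 (-0.33, 0.154). In ependymal nuclei the ranges were 38.7 to 49.4 and 67.7 to 87.4 CPM (log2 fold change -0.71 ± 0.15, SE, edgeR adjusted p = 0.0151), lost without vehicle replicate 3 (-0.60, edgeR adjusted p = 0.100), with Scrublet calls left out (-0.39, 0.304) and at Leiden resolution 2 (-0.40, 0.215). Neither of its subtypes was called, with -0.12 ± 0.22 in choroid plexus epithelium (edgeR adjusted p = 0.974) and -0.28 ± 0.35 in multiciliated cells (SE, 0.776). Free RNA in droplets can carry the transcripts of 1 cell type into another, and 1 source keeps the ratio of its genes. In myelinating oligodendrocytes there were 4.63 to 5.54 Trf UMIs per 100 UMIs of 12 markers of these cells after LPA and 4.65 to 4.82 after vehicle. In astrocytes the ratio was 4.03 to 4.12 and 4.06 to 4.26, and in neurons 4.57 to 5.05 and 4.09 to 4.54. The 12 markers themselves were at 624 to 747 CPM in astrocytes after LPA and 750 to 1137 CPM after vehicle. In ependymal nuclei the ratio was 5.86 to 8.55 after LPA and 4.88 to 6.65 after vehicle. It was 9.91 to 16 and 8.30 to 13.8 in choroid plexus epithelium, against 3.38 to 4.57 and 1.76 to 3.99 in multiciliated cells. The part of free RNA in the Trf values of these classes was not tested.

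Immune nuclei had a higher ratio of Trf to these markers than myelinating cells did. Their Trf was 142, 154 and 124 CPM in LPA libraries and 187, 289 and 249 CPM in vehicle libraries, without overlap (log2 fold change -0.86 ± 0.15, SE, edgeR adjusted p = 1.17e-04). Without vehicle replicate 2 the value was -0.60 (edgeR adjusted p = 0.0966). The ratio to the myelinating markers was 10.9 to 13.2 per 100 after LPA and 12.7 to 16 after vehicle, and in macrophages 23.7 to 35.3 and 20.8 to 29.0. In homeostatic microglia alone Trf was 143, 179 and 132 CPM after LPA and 163, 277 and 261 CPM after vehicle. The groups overlapped there, and the call (log2 fold change -0.69 ± 0.17, SE, edgeR adjusted p = 0.0209) was lost without LPA replicate 1 (-0.64, 0.138), LPA replicate 3 (-0.60, 0.184), vehicle replicate 2 (-0.44, 0.623) and vehicle replicate 3 (-0.67, 0.0787). It was lost with the replicate block (-0.61, edgeR adjusted p = 0.0536), in DESeq2 (-0.67, adjusted p = 0.218) and with Scrublet calls left out (-0.63, edgeR adjusted p = 0.149). Immune cluster 4, named homeostatic, held 227 of the 888 homeostatic nuclei of LPA libraries but 9 of the 528 of vehicle libraries. Without it Trf was 165, 189 and 155 CPM after LPA and 163, 278 and 270 CPM after vehicle. The marker sum was lower in homeostatic microglia after LPA as well, at 1172 to 1259 against 1499 to 2207 CPM, so that the ratios overlapped (10.8 to 14.3 and 10.8 to 15.9 per 100).

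**Figure D4:**
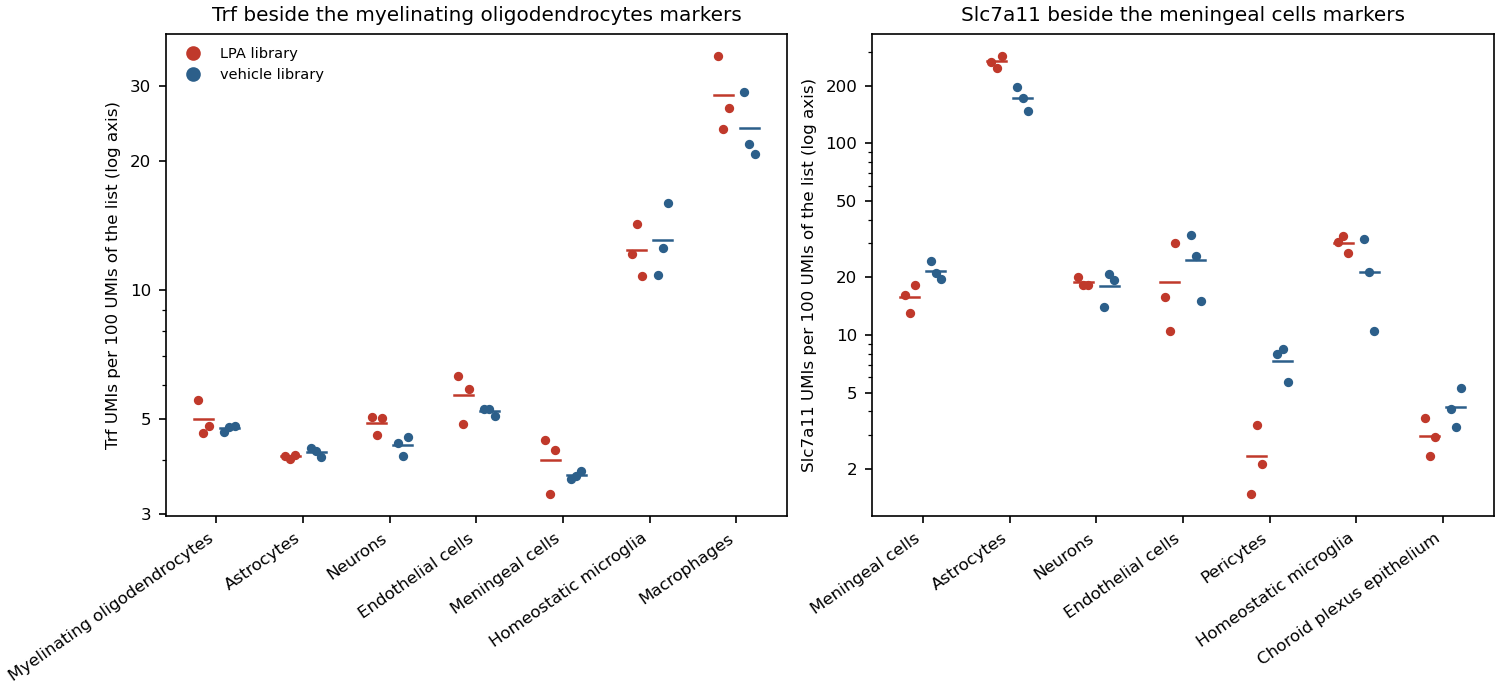
Member UMIs per 100 UMIs of a marker list (vertical axes, log scale) are plotted for Trf against 12 markers of myelinating oligodendrocytes (left) and for Slc7a11 against 12 markers of meningeal cells (right), with a point per library and a line at the mean. Trf in astrocytes (4.03 to 4.26) lies close to its source (4.63 to 5.54), while macrophages lie above it and Slc7a11 in astrocytes lies above that of meningeal cells.

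Slc11a2 was called in no class, although its groups did not overlap in immune nuclei. There it was 45.3, 53.8 and 56.3 CPM in LPA libraries and 43.1, 28.4 and 16.96 CPM in vehicle libraries, the last from 3 UMIs (log2 fold change 0.81 ± 0.29, SE, edgeR adjusted p = 0.0956). Elsewhere its log2 fold change lay between -0.17 in oligodendrocytes and 0.16 in ependymal nuclei. The oligodendrocyte effect lay 0.39 ± 0.11 (SE) below the mean of the other 5 classes (edgeR adjusted p = 0.0391), with the immune value among those 5. This was lost without LPA replicate 2 (-0.31, edgeR adjusted p = 0.156), vehicle replicate 2 (-0.43, 0.0711) and vehicle replicate 3 (-0.33, 0.187), and with RLE size factors (-0.37, 0.0543).

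Ferroportin, the exporter, was highest in immune and vascular nuclei. Slc40a1 in the vascular class was 108, 82.7 and 87.1 CPM in LPA libraries and 79.9, 43.5 and 56.6 CPM in vehicle libraries. The groups were close but did not overlap (log2 fold change 0.65 ± 0.17, SE, edgeR adjusted p = 0.0243). It was lost without the mitochondrial filter (0.44, edgeR adjusted p = 0.0620). Without LPA replicate 1 or 3 the value was 0.52 (edgeR adjusted p = 0.133) or 0.69 (0.0651), and without vehicle replicate 2 or 3 it was 0.45 (0.0795) or 0.62 (0.108). Within endothelial cells, its main vascular site, it was 400, 342 and 305 CPM after LPA and 452, 348 and 417 CPM after vehicle. These overlapped, with a log2 fold change of -0.23 ± 0.13 (SE, edgeR adjusted p = 0.728), so that the sign in the class was not the sign in its main subtype. In immune nuclei the levels of 143 to 150 CPM after LPA lay within the vehicle range of 114 to 182 CPM (log2 fold change 0.04 ± 0.17, SE). Over all nuclei Slc40a1 was 12.8 to 15.8 CPM after LPA and 9.43 to 12.7 CPM after vehicle. This was not called (log2 fold change 0.45, edgeR adjusted p = 0.0700) but was called in DESeq2 (0.45, adjusted p = 0.0116), without vehicle replicate 1 (0.58, edgeR adjusted p = 0.0141) and with the replicate block (0.46, 0.0284).

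Ceruloplasmin, a copper enzyme that oxidizes exported iron, was lower after LPA in vascular nuclei. In astrocytes it was higher, at a low level and only under some settings. Cp in the vascular class was 276, 225 and 221 CPM in LPA libraries and 388, 375 and 386 CPM in vehicle libraries. The groups lay far apart (log2 fold change -0.67 ± 0.09, SE, edgeR adjusted p = 3.14e-04). In meningeal cells, where Cp was highest, it was 381, 266 and 271 CPM after LPA and 494, 443 and 458 CPM after vehicle. This subtype was called too (log2 fold change -0.60 ± 0.11, SE, edgeR adjusted p = 0.00763), though not without LPA replicate 2 (-0.50, edgeR adjusted p = 0.0607) or LPA replicate 3 (-0.53, 0.0634). In pericytes Cp was 289 ± 8.997 CPM after LPA and 293 ± 49.97 CPM after vehicle (SD, n = 3), with a log2 fold change of -0.02 ± 0.13 (SE). In immune nuclei the levels were 55.6 to 70.3 CPM after LPA and 79.1 to 120 CPM after vehicle (log2 fold change -0.71 ± 0.21, SE, edgeR adjusted p = 0.0357). That call did not hold without LPA replicate 2 (-0.58, 0.188), LPA replicate 3 (-0.73, 0.0731) or vehicle replicate 2 (-0.37, 0.659), nor with the replicate block (-0.69, edgeR adjusted p = 0.0802) or with no filter on low counts (-0.65, 0.0526). It was also lost in DESeq2 (-0.66, adjusted p = 0.285), with no mitochondrial filter (-0.67, edgeR adjusted p = 0.0539) and with Scrublet calls left out (-0.65, 0.0715). Macrophages, where immune Cp was highest, were 3.98% to 5.48% of immune nuclei after LPA and 12.7% to 17.1% after vehicle. In homeostatic microglia its log2 fold change was 0.08 ± 0.32 (SE).

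Cp in astrocytes was 15.4, 16.04 and 15.8 CPM in LPA libraries and 11.1, 10.5 and 10.5 CPM in vehicle libraries. The groups did not overlap (log2 fold change 0.58 ± 0.14, SE, edgeR adjusted p = 0.0137), and the effect exceeded the mean of the other 5 classes by 0.98 ± 0.16 (SE, edgeR adjusted p = 1.61e-04). Both values changed with the set of nuclei used and with the clustering, and the reason was not tested. The log2 fold change fell to 0.09 (edgeR adjusted p = 0.753) with Scrublet calls left out and to 0.03 (0.928) at Leiden resolution 2. The difference from the other classes was lost under both settings (0.37, edgeR adjusted p = 0.262, and 0.44, 0.146). The astrocyte call was also lost in DESeq2 (0.58, adjusted p = 0.0805) and without LPA replicate 2 (0.58, 0.0517) or vehicle replicate 2 (0.57, 0.0649) in edgeR. Astrocytes held Cp at 4.24% of the vascular level, and 8 of 22 vascular markers were at or above that share there. Per 100 meningeal marker UMIs, astrocytes had 8.23 to 8.67 Cp UMIs after LPA and 4.15 to 4.745 after vehicle. In meningeal cells the ratio was 3.005 to 4.47 and 5.58 to 5.90. The part of free RNA in the astrocyte values of Cp was not tested. Over all nuclei Cp was 32.6 to 42.6 CPM after LPA and 59.4 to 65.4 CPM after vehicle (log2 fold change -0.69 ± 0.09, SE, edgeR adjusted p = 0.00539). Without the meningeal nuclei the ranges came closer, at 25.9 to 33.4 and 34.0 to 38.0 CPM, and did not overlap.

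Heme oxygenase was raised in immune nuclei, from few UMIs. Hmox1 had 32, 40 and 13 UMIs in the immune nuclei of LPA libraries (36.3, 34.7 and 14.4 CPM) and 0, 2 and 1 in those of vehicle libraries. The count of 0 in vehicle library 1 allows up to 14.4 CPM. The pooled level was 9.48 times as high after LPA, with an exact 95% interval of 3.14 to 46.9 for counting error only, and the log2 fold change of the fit was 3.16 ± 0.65 (SE, edgeR adjusted p = 0.00139). It was lost without vehicle replicate 2 (3.40, edgeR adjusted p = 0.0640). Hmox1 passed the filter on low counts in immune nuclei through the LPA libraries, where it was high, so that this call is a description of them. The other classes, with 9 to 46 Hmox1 UMIs over the 6 libraries, were too low to be tested. A UMI of Hmox1 was found in 2.67% of the 1458 immune nuclei of LPA libraries (median 1923 UMIs per nucleus) and in 0.464% of the 647 of vehicle libraries (median 1447). In the other classes, at medians of 2456 to 6367 UMIs, the share was 0.103% to 0.638%, so the share in immune nuclei of vehicle libraries was within the range of the other classes. Over all nuclei Hmox1 rose from 0.685 ± 0.121 to 1.58 ± 0.253 CPM (SD, n = 3, log2 fold change 1.22 ± 0.21, SE, edgeR adjusted p = 0.0124), a call lost without LPA replicate 1 (1.17, 0.0550) or LPA replicate 2 (1.16, 0.0515). Immune nuclei were 5.196% to 6.01% of the nuclei of LPA libraries and 1.10% to 3.29% of those of vehicle libraries. Without them Hmox1 was 0.845 to 1.02 CPM after LPA and 0.513 to 0.769 CPM after vehicle.

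Immune nuclei held 85 of the 204 Hmox1 UMIs of LPA libraries, and most of these 85 lay in microglia outside the homeostatic group. Immune nuclei of LPA libraries held 168 activated microglia (40, 68 and 60 per library) and 310 nuclei whose markers lay between homeostatic and activated microglia. The vehicle libraries held 0 of either among 647 immune nuclei, which allows a share of up to 0.464% for counting error only. These groups could thus not be tested, and the values that follow describe LPA libraries only. The nuclei were clustered here without integration of the libraries. The study integrated its libraries and compared activated microglia of LPA and vehicle brains, so its activated group included vehicle nuclei. Of the 85 UMIs, 56 lay in 24 of the 310 nuclei between the groups, 16 in 7 of the 168 activated microglia, 8 in 3 of 66 macrophages and 5 in 5 of 888 homeostatic microglia. The activated microglia of LPA library 1 held 12 of those 16 UMIs. Red blood cell markers, of which 7 were in the files and 3 of these at 0, were 38.6 to 65.1 CPM in immune nuclei after LPA and 39.6 to 80.3 CPM after vehicle and overlapped. Of 8 neutrophil markers, 7 were at 0 in immune nuclei. The remaining marker was Csf3r, a leading gene of the cluster named immune. It gave 483 to 518 CPM after LPA and 356 to 503 CPM after vehicle. In homeostatic microglia it was 553 to 581 and 475 to 596 CPM, against 62.35 to 119 and 81.65 to 146 CPM in macrophages. The part of either list in the Hmox1 values was not tested.

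**Figure D5:**
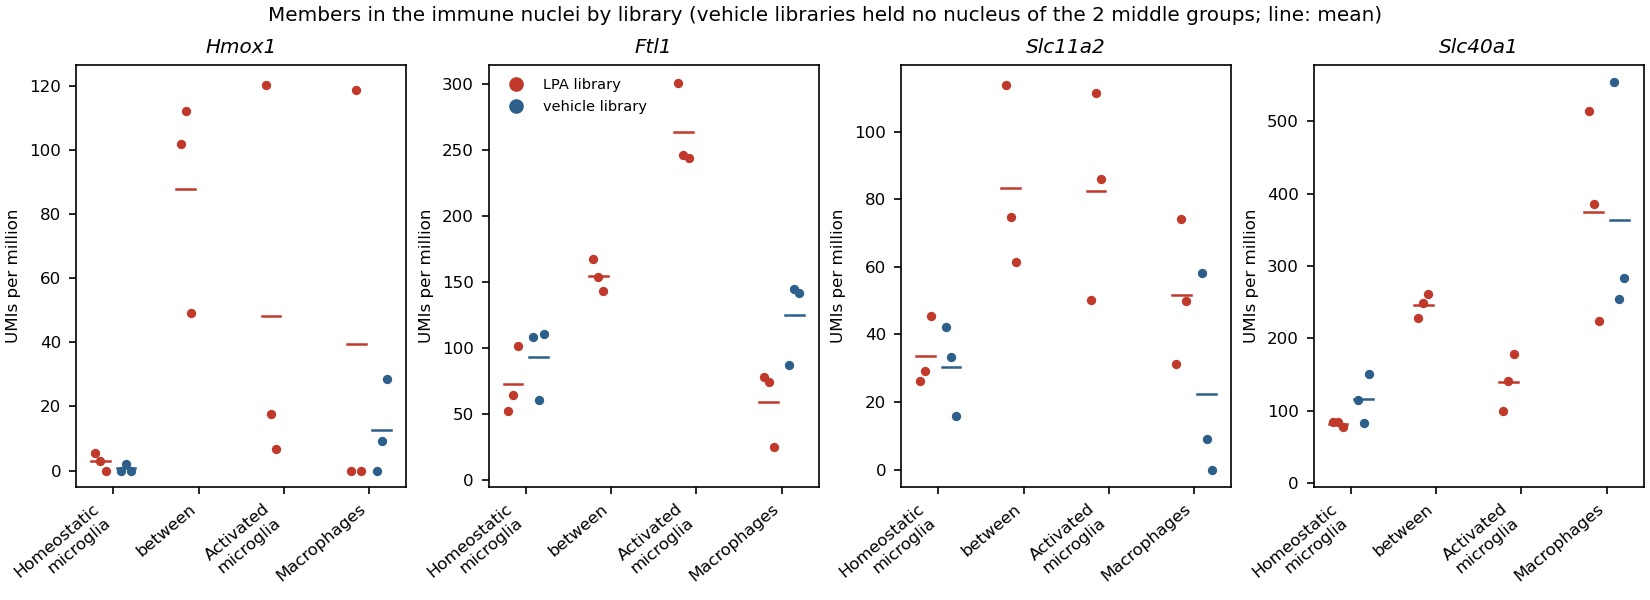
Levels in CPM (vertical axes) of Hmox1, Ftl1, Slc11a2 and Slc40a1 are plotted for the immune subtypes, with a point per library and a line at the mean. Ftl1 lay at 244 to 301 in activated microglia of the 3 LPA libraries, above the 52.5 to 102 of homeostatic microglia in the same libraries, and vehicle libraries had no nuclei in the 2 middle groups.

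Some of the other members also stood higher in these LPA-only nuclei, although members were kept out of the genes used for clustering. Ftl1 was 301, 246 and 244 CPM in activated microglia of LPA libraries 1 to 3 and 168, 154 and 143 CPM in the nuclei between. In homeostatic microglia of the same libraries it was 52.5, 64.4 and 102 CPM, and 60.4 to 111 CPM in those of vehicle libraries. Every activated value lay above every homeostatic one. Fth1 was 150 to 205 CPM in activated and 86.2 to 128 CPM in homeostatic microglia of LPA libraries, a smaller distance. In homeostatic microglia of vehicle libraries Fth1 was 119 to 162 CPM, which overlapped the activated values. Slc11a2 was 50.1, 111 and 85.9 CPM in activated microglia and 114, 74.8 and 61.3 CPM in the nuclei between, against 26.2 to 45.5 CPM in homeostatic microglia of LPA libraries and 15.83 to 42.15 CPM in those of vehicle libraries. Within homeostatic microglia its log2 fold change was 0.01 ± 0.37 (SE). Slc40a1 was highest in the nuclei between among microglia, at 228 to 261 CPM, with 100 to 178 CPM in activated and 78.0 to 84.4 CPM in homeostatic microglia of LPA libraries. Its range in homeostatic microglia of vehicle libraries, 83.3 to 150 CPM, overlapped the activated values but not those of the nuclei between. Trf ran the other way, at 50.1 to 79.3 CPM in activated and 132 to 179 CPM in homeostatic microglia of LPA libraries. Macrophages, known to recycle iron, held Slc40a1 at 225 to 514 CPM after LPA and 254 to 554 CPM after vehicle (log2 fold change 0.16 ± 0.34, SE).

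Slc7a11, the cystine transporter, was lower after LPA in vascular nuclei and slightly higher in astrocytes. In the vascular class it was 700, 650 and 805 CPM in LPA libraries and 1418, 1251 and 1128 CPM in vehicle libraries, without overlap (log2 fold change -0.81 ± 0.09, SE, edgeR adjusted p = 1.49e-04). In meningeal cells, the main site among all subtypes, the levels were 1380, 1144 and 1572 CPM after LPA and 2044, 1673 and 1589 CPM after vehicle. The groups nearly touched and the log2 fold change of -0.37 ± 0.11 (SE) was not called (edgeR adjusted p = 0.126), except without LPA replicate 3 (-0.48, edgeR adjusted p = 0.0386) and with no filter on low counts (-0.40, 1.15e-04). Meningeal nuclei were 301, 508 and 357 in LPA libraries and 669, 1188 and 1170 in vehicle libraries. Over all nuclei Slc7a11 was 158 to 170 CPM after LPA and 211 to 242 CPM after vehicle (log2 fold change -0.46 ± 0.06, SE, edgeR adjusted p = 0.00409). Without the meningeal nuclei it was 118 to 131 CPM and 115 to 138 CPM, and the groups overlapped.

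In pericytes Slc7a11 showed the largest effect on any member tested in a subtype. It was 22.3, 54.4 and 28.3 CPM in LPA libraries (10, 29 and 14 UMIs) and 165, 177 and 108 CPM in vehicle libraries (57, 112 and 59 UMIs). The groups did not overlap, and the log2 fold change of -2.06 ± 0.25 (SE, edgeR adjusted p = 2.32e-05) was called in every alternative. Markers of meningeal cells moved with it in pericytes, at 1334 to 1599 CPM after LPA and 1893 to 2109 CPM after vehicle. Per 100 of these marker UMIs, there were 1.48 to 3.40 Slc7a11 UMIs after LPA and 5.70 to 8.40 after vehicle, so the ratio differed as well, without overlap. Both lay below the ratio in meningeal cells (12.9 to 18.3 and 19.5 to 24.5). Endothelial cells gave 33.8, 41.6 and 88.6 CPM after LPA and 153, 127 and 70.7 CPM after vehicle, with overlap (log2 fold change -1.07 ± 0.27, SE, edgeR adjusted p = 0.123). That value was called without LPA replicate 3 (-1.60, edgeR adjusted p = 0.00293), without vehicle replicate 3 (-1.35, 0.0261) and with no filter on low counts (-1.05, 5.61e-04).

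In astrocytes, which export glutamate in exchange for cystine, Slc7a11 was 474, 484 and 536 CPM in LPA libraries and 462, 411 and 372 CPM in vehicle libraries. The groups lay close without overlap (log2 fold change 0.28 ± 0.08, SE, edgeR adjusted p = 0.0312). The call was lost without LPA replicate 2 (0.31, edgeR adjusted p = 0.0624), LPA replicate 3 (0.22, 0.176), vehicle replicate 2 (0.28, 0.0868) and vehicle replicate 3 (0.21, 0.145), and with the replicate block (0.28, 0.0597). The difference from the mean of the other 5 classes, 0.77 ± 0.14 on the log2 scale (SE, edgeR adjusted p = 5.64e-04), was lost only without vehicle replicate 2 among the alternatives run (0.61, 0.0749). The effects in those 5 classes were all negative, at -0.81 in vascular nuclei, -0.49 in neurons and in ependymal nuclei, -0.45 in immune nuclei and -0.20 in oligodendrocytes. Only the vascular value was called. Per 100 meningeal marker UMIs, astrocytes had 248 to 286 Slc7a11 UMIs after LPA and 147 to 197 after vehicle, both above the ratio in meningeal cells. In neurons (18.1 to 20.1 and 14.0 to 20.7) and endothelial cells (10.5 to 30.2 and 15.02 to 33.0) the ratio was near that of meningeal cells.

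Each member had its own order of levels over the classes. Mean levels over the 6 libraries were highest in oligodendrocytes for Fth1 (164 ± 41.0 CPM, SD) and Trf (459 ± 74.99 CPM), in immune nuclei for Ftl1 (107 ± 18.8 CPM), Slc40a1 (149 ± 22.9 CPM), Slc11a2 (40.7 ± 15.2 CPM) and Hmox1 (15.7 ± 16.05 CPM), and in the vascular class for Tfrc (199 ± 66.3 CPM), Cp (312 ± 80.0 CPM) and Slc7a11 (992 ± 318 CPM). The second place went to immune nuclei for Fth1, Trf and Cp, to vascular nuclei for Ftl1, Slc40a1 and Hmox1, to neurons for Tfrc, to ependymal nuclei for Slc11a2 and to astrocytes for Slc7a11. Slc11a2 was the most even, and oligodendrocytes, neurons and vascular nuclei followed at 36.5 ± 3.28, 35.97 ± 1.44 and 33.6 ± 2.97 CPM. Between neighbours in the order, 22 of 45 pairs kept their order in 6 of 6 libraries. No pair passed 0.05 after adjustment over the 45 (two-sided exact sign-flip permutation test, lowest p = 0.0313, which is the smallest 6 libraries allow, lowest adjusted p = 0.0639). Set against its highest class, Slc40a1 in oligodendrocytes (0.967%), astrocytes (2.02%) and neurons (2.29%) lay at or below 3, 1 and 2 of the 15 immune markers, whose medians there were 0.3327%, 0.510% and 1.03%. Ftl1 and Slc11a2 were above all 15 immune markers in every other class.

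The pattern over the 17 classes and subtypes most like each member was found by Pearson's r of log2(mean CPM + 1) among 15134 genes, as a description in which the types share libraries and some nuclei. Tfrc was most like Hbb-bt, a beta globin of red blood cells (r = 0.944), and Egfl7, an endothelial gene (r = 0.941). Red blood cell markers summed to 1797 to 2426 CPM in endothelial nuclei after LPA and 2085 to 3893 CPM after vehicle. Slc40a1 was most like Pik3r6 (r = 0.975) and Gm27201 (0.964), Hmox1 like Zbp1, a sensor of nucleic acids (0.958), and Plekhm1 (0.947), and Ftl1 like Akr1a1, an aldehyde reductase (0.968), and Gabarap, a protein of autophagy (0.964). Slc7a11 was most like Fmo1 (0.973) and Ranbp3l (0.970), Cp like Xrn1 (0.925) and Gypc (0.900), Trf like Rngtt (0.929) and Mtmr2 (0.920), Fth1 like Sypl (0.916) and Gstm7 (0.872), and Slc11a2 like Mkrn2 (0.885) and Bnip3 (0.841).

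Other genes of these pathways were described from 4 lists, with up to 3 called genes named per list and class. Their counts over the 6 classes stand beside the 6.18% of all genes called in either direction. In the 10 subtypes tested, beside 1.07% of all genes, the lists gave a call only for Slc39a14, Bmp6 and Lpcat3. These were Slc39a14 in meningeal cells (0.62 ± 0.14, SE, edgeR adjusted p = 0.0405), Bmp6 in pericytes and Lpcat3 in multiciliated cells (-0.82 ± 0.22, 0.02635). The shares of subtypes within classes differed between groups, and their part in the class values below was not tested. Of 15 further genes of iron transport and reduction, 5 of 53 tests over the 6 classes gave a raised and 3 a lowered call (8 of 53, or 15.1%). In astrocytes, Cybrd1 and Steap3, which reduce iron, were raised (log2 fold change 0.66 ± 0.14, edgeR adjusted p = 0.00704, and 0.48 ± 0.11, 0.0118) and Heph, a relative of ceruloplasmin, was lowered (-0.60 ± 0.14, 0.0122), and 1 more gene was raised. The median over the 9 list genes tested in astrocytes was 0.30, beside -0.01 over all genes. Slc39a14, a metal importer, was raised in oligodendrocytes (0.54 ± 0.09, edgeR adjusted p = 0.00104), from 16.7 to 19.6 CPM in vehicle libraries to 25.7 to 28.3 CPM in LPA libraries. Slc39a8, its relative, was raised in vascular nuclei (1.12 ± 0.13, edgeR adjusted p = 1.75e-04), and Scara5, a receptor for ferritin, was lowered there (-0.78 ± 0.20, 0.0236). Steap2 was lowered in ependymal nuclei (-0.77 ± 0.16, edgeR adjusted p = 0.00948).

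Of 22 genes of iron sensing and iron-sulfur assembly, 0 of 102 tests gave a raised and 6 a lowered call (5.88%), a share near the 6.18% of all genes. Bmp6, a signal for iron status from vessels, was lowered in vascular nuclei from 1316 to 1556 CPM after vehicle to 1013 to 1085 CPM after LPA (log2 fold change -0.48 ± 0.08, SE, edgeR adjusted p = 0.00118) and in pericytes from 130 to 194 CPM to 41.2 to 42.4 CPM (-1.95 ± 0.20, 3.74e-06). In neurons it was lowered too (-0.64 ± 0.10, edgeR adjusted p = 0.0256). In meningeal cells, where it was highest, Bmp6 was 1764 to 2111 CPM after LPA and 1745 to 2227 CPM after vehicle (-0.04 ± 0.09, edgeR adjusted p = 0.94). Meningeal nuclei were a smaller share of the vascular class after LPA, as given beside Tfrc. Their markers were lower after LPA in pericytes, as given beside Slc7a11, and in neurons (125 to 126 against 178 to 195 CPM). Their part in the Bmp6 values was not tested. Isca2, of iron-sulfur assembly, was lowered in astrocytes (-0.45 ± 0.13, edgeR adjusted p = 0.0321) and oligodendrocytes (-0.36 ± 0.08, 0.00604), Glrx5 in astrocytes (-0.54 ± 0.15, 0.0346) and Fbxl5, an iron sensor, in oligodendrocytes (-0.26 ± 0.06, 0.0128).

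Heme genes gave 4 raised and 3 lowered calls in 93 tests over 19 genes (7.53%), again near the 6.18% of all genes. In immune nuclei, Blvrb, a biliverdin reductase downstream of heme oxygenase, was raised (0.89 ± 0.26, edgeR adjusted p = 0.0303), and Cd163, the macrophage receptor for hemoglobin, was lowered from 125 to 260 CPM to 11.04 to 64.6 CPM (-2.02 ± 0.29, 1.26e-05), beside the lower share of macrophages given above. The heme exporter Flvcr1 was raised in astrocytes (0.44 ± 0.10, edgeR adjusted p = 0.0114), its relative Flvcr2 in vascular nuclei (0.58 ± 0.11, 0.00393) and Lrp1, a receptor for hemopexin, in oligodendrocytes (0.80 ± 0.11, 1.75e-04). The heme transporter Slc48a1 was lowered in astrocytes (-0.34 ± 0.09, edgeR adjusted p = 0.0218) and oligodendrocytes (-0.40 ± 0.06, 5.80e-04). Genes of cystine, glutathione and lipid peroxide defence gave 3 raised and 5 lowered calls in 158 tests over 33 genes (5.06%, beside 6.18% of all genes). Nfe2l2, the regulator NRF2 that is known to act on ferritin genes, Hmox1 and Slc7a11, was raised in immune nuclei from 112 to 147 CPM to 213 to 235 CPM (0.86 ± 0.15, edgeR adjusted p = 1.47e-04). Cbs was lowered in astrocytes (-0.34 ± 0.06, edgeR adjusted p = 0.00102), Gclc, which makes the first bond of glutathione, in vascular nuclei (-0.52 ± 0.10, 0.00422), and Gss and Prdx6 in oligodendrocytes (-0.41 ± 0.07, 0.00121, and -0.31 ± 0.08, 0.0135). Slc1a1 was raised in oligodendrocytes (0.31 ± 0.06, edgeR adjusted p = 0.00228) and vascular nuclei (0.54 ± 0.13, 0.0147).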

How the data were processed

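Nuclei of whole brains without olfactory bulbs and cerebellum were sorted with DAPI and an antibody to NeuN, and NeuN-negative nuclei were run on the 10x Genomics 3′ platform. The authors aligned the reads to mm10 with introns counted, using Cell Ranger 4.0.0, and deposited filtered matrices of UMI counts per gene and nucleus, 1 for each of 6 libraries. Their normalization, integration of libraries and label transfer were not repeated.

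A barcode needed 300 genes or more and could hold no more than 1% mitochondrial UMIs; its UMI total could exceed the upper quartile of the library by up to 1.5 interquartile ranges. Clusters (3000 variable genes without markers, members and list genes, 40 components, 30 neighbours, Leiden resolution 1; scanpy 1.11.5, leidenalg 0.10.2) were named from their 8 best markers, of which at least 3 had to be detected in 10% of nuclei. Clusters with over 50% Scrublet calls stayed unnamed (at least 74.9% of their nuclei were called, and at most 23.6% in named clusters). So did clusters with markers of another class among their leading genes. The largest of these held 1470 nuclei, with a median of 624.5 UMIs and 46.3% Scrublet calls. Fth1 was among its leading genes, and it enters the sums over all nuclei. Subtypes with a second score above 0.85 of the first also stayed unnamed. Both limits were chosen with the clusters in view. Doublet calls in named clusters, among the 13.7% to 17.1% of nuclei called per library, were kept.

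UMI counts were summed per library and cell type and tested with edgeR 4.0.16 (filterByExpr, TMM, quasi-likelihood, R 4.3.3), with Benjamini-Hochberg adjustment over all genes. SE is the log2 fold change over the square root of F. Differences between classes were tested in 1 model with a library term, as the effect in a class minus the mean of the other 5. Tested on simulated 2-fold changes of 200 genes, edgeR called 94% of them in astrocytes (14646 genes) and 76% in immune nuclei (9590 genes). Libraries of 1 group differed by more than sampling noise (chi-square per degree of freedom 13.3 to 26.8). Intervals and limits for counts of 0 cover counting error only.

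The members and gene lists were chosen with earlier results of these data known. All 9 members are named, and of 4 pathway lists up to 3 called genes of lowest adjusted p per class, and the 2 genes most alike to each member among those reaching 10 CPM in a cell type. Alternatives were RLE size factors, DESeq2 1.42.0, no filter on low counts, a replicate block, no mitochondrial filter, Scrublet calls left out, Leiden resolution 2 and each library left out.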

Additional observations from a re-analysis of the deposited data

Results flagged for a closer look

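The LPA effect on 11 of the 54 member and class combinations differed from its mean in the other 5 classes (edgeR adjusted p under 0.05 for the difference itself). In vascular nuclei the log2 difference was 0.83 for Tfrc, 0.63 for Slc40a1, 0.37 for Fth1, -0.56 for Cp and -0.59 for Slc7a11. For Fth1 the effect in the class was near 0, although its values were negative in each of the 3 vascular subtypes, and the difference was lost without vehicle replicate 2 (0.30, edgeR adjusted p = 0.117). That for Slc7a11 was lost without LPA replicate 2 (-0.51, 0.0613).

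The difference for Slc40a1 was lost without LPA replicate 1 (0.56, edgeR adjusted p = 0.141), vehicle replicate 2 (0.48, 0.256) and vehicle replicate 3 (0.65, 0.0579). It was also lost with no mitochondrial filter (0.48, edgeR adjusted p = 0.0969) and with Scrublet calls left out (0.64, 0.0586). The subtypes that make up the vascular class differed in share between the groups, with the values given beside Tfrc, and their part in these differences was not tested.

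In astrocytes the log2 difference was 0.98 for Cp and 0.77 for Slc7a11, and in immune nuclei 0.63 for Ftl1 and 3.06 for Hmox1. The Hmox1 value is no independent result, since it passed the filter through the immune nuclei of LPA libraries, where it was high, and could not be tested alone in the other classes. It was also lost without LPA replicate 2 (2.81, edgeR adjusted p = 0.0512), vehicle replicate 1 (2.59, 0.111) and vehicle replicate 2 (3.55, 0.0870). In oligodendrocytes the log2 difference was -0.39 for Fth1 and -0.39 for Slc11a2. The LPA effect on Fth1 was -0.67 in the class but -0.35, -0.38 and -0.40 in myelinating oligodendrocytes, newly formed oligodendrocytes and precursors. The share of myelinating nuclei differed between groups, as given with Fth1, and its part in the difference was not tested. The settings and libraries under which the others were lost are given with each member.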

How the results depend on the processing

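Over 13 alternatives, 277 of 336 called values kept direction and call and 59 fell short, while 16 uncalled values gained a call and 1 more uncalled value turned over into a call. Fth1 (all nuclei, astrocytes, oligodendrocytes), Cp (all nuclei, vascular), Slc7a11 (all nuclei, vascular, pericytes), Tfrc (vascular) and Trf (oligodendrocytes, newly formed oligodendrocytes) kept their calls in all 13. The vascular Fth1 value of -0.03 became 0.40 with no mitochondrial filter, and the cause was not tested. The 2 calls in ependymal nuclei became 1 in DESeq2, 0 with Scrublet calls left out and 1 at Leiden resolution 2, and the 0 calls in neurons became 2 with no filter on low counts. With 1 library left out, calls ranged from 1 to 4 in astrocytes, 0 to 2 in ependymal nuclei, 0 to 3 in immune nuclei, 0 to 2 in neurons, 7 to 17 over the classes (15 with all libraries) and 3 to 6 over all nuclei (5), and differences between classes from 5 to 11. The lowest over the classes and of the differences came without vehicle replicate 2, and that over all nuclei without LPA replicate 2. Of the 18 genes most alike, 6 were named again with no mitochondrial filter, 6 with Scrublet calls left out and 8 at Leiden resolution 2. Alternatives for the differences, the order of levels and the genes most alike were chosen after seeing the data, as were the levels without clusters that held over 90% nuclei of 1 group.

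Whether replicate numbers pair the libraries could not be settled with 3 libraries per group. Deviations over all nuclei correlated at 0.15, 0.38 and -0.03 for equal numbers 1, 2 and 3. The highest correlation with another number was 0.29, -0.15 and 0.05. With the replicate block, the calls of members were 13 over the classes, 6 over all nuclei and 4 in subtypes (6 without it). The counts of calls under the alternatives are given without the share of all genes called in the same runs. They describe the calls of members only and do not set members against other genes.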
